A study of Mus musculus with 6 samples.

Results

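Necroptosis and pyroptosis are forms of cell death in which the plasma membrane is breached and cell contents leak out. In necroptosis, the kinase Ripk3 is engaged by Ripk1 or by the Z-nucleic acid sensor Zbp1 and phosphorylates Mlkl, which then permeabilises the membrane, while Casp8 holds the pathway in check by cleaving the kinases. In pyroptosis, the inflammatory caspases Casp1 and Casp4 (known in the mouse as caspase-11) cut Gsdmd, whose released part forms pores, and other gasdermins are opened by other proteases. These pathways are well known in barrier epithelia, where keratinocytes lacking Casp8 die by necroptosis. The present account follows 10 such genes, *Ripk1*, *Ripk3*, *Mlkl*, *Zbp1*, *Casp8*, *Casp1*, *Casp4*, *Gsdma*, *Gsdmd* and *Gsdme*, through the corneal epithelium of mice in which *Ptch1* was ablated in the stroma. They were taken by gene symbol, and all 10 were found among the 17784 genes of the expression table. The list was chosen on pathway membership with the read counts and TPM values of the same comparison already known, so the group differences of these 10 genes are given as a description, without p values.

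Bulk RNA-seq was performed on corneal epithelial cells of 3 *Prrx1-CreERT;Ptch1 f/f* samples, called *Ptch1*-ablated here and titled KO in the labels, and of 3 control samples, which the labels call WT and the study marks as *Ptch1 f/f*. The lines were kept on a C57BL/6 background. The *Prrx1-CreERT* knock-in directs recombination to keratocytes, and also to corneal endothelium and other ocular mesenchyme, so the deletion was aimed at cells beneath the epithelium and not at the cells sequenced. Both groups received 3 doses of tamoxifen at an age that the labels give as 10 weeks, and were sampled after 2 months, when the epithelium was lifted off with EDTA. Samples were described as biological replicates, but neither the number of mice behind each sample nor their sex is stated, and p values measure only the spread between these samples.

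Expected counts per sample summed to between 20296741 and 20625813, and the limit of 3 counts lay at 0.142 to 0.152 CPM depending on the sample, allowing for counting error alone. *Ptch1* itself, the deleted gene, had 517 to 682 normalized counts in control and 390 to 471 in *Ptch1*-ablated epithelium. Its log2 fold change, with the standard error (SE) of the fit, was -0.51 (SE 0.13, edgeR quasi-likelihood adjusted p = 0.0401), under the fold change needed for a call. The cells carried the marks of corneal epithelium, with *Krt12* at 37107 to 49487 TPM in all 6 samples. Of the 9 measured markers of that tissue 1 was called higher, *Krt14*, a basal cell keratin, where 2.34% of all tested genes were. It rose from 534 to 644 TPM over the control samples to 2420 to 5798 TPM over the *Ptch1*-ablated samples (log2 fold change 2.81, edgeR adjusted p = 0.00769), with *Ptch1*-ablated replicate 1 highest. The 12 measured immune markers summed to 126 to 167 TPM in control and 155 to 659 TPM in *Ptch1*-ablated samples. Most of the control sum came from *Itgam*, at 67.0 to 101 TPM in control and 99.5 to 129 TPM in *Ptch1*-ablated samples, and *Cd68*, at 45.3 to 50.1 and 48.8 to 65.5 TPM, neither of them called. In normalized counts both lay above all control samples in every *Ptch1*-ablated sample, as did 19.7% of all tested genes. *Cd74*, the only other of the 3 immune markers tested, had a log2 fold change of -0.45 with overlapping groups and was not called. *Ptprc*, *Adgre1*, *Lyz2*, *Cd3e*, *Csf1r*, *Cd207* and *Itgax* never exceeded 0.43 TPM, whereas *S100a8* and *S100a9* stood at 78.8 and 373 TPM in *Ptch1*-ablated replicate 1 and at no more than 7.02 TPM elsewhere. The 8 keratocyte markers summed to 3.81 to 54.8 TPM in control, with control replicate 3 highest, and to 3.67 to 7.88 TPM in *Ptch1*-ablated samples. Most of the sum in control replicate 3 was *Col1a2* (26.0 TPM) and *Vim* (20.8 TPM). The 4 tested had log2 fold changes below 0, and 0 were called. *Dcn* went the other way, at 0.06 to 0.36 TPM in control and 0.54 to 1.35 TPM in *Ptch1*-ablated samples, too low to be tested. *Kera* never exceeded 0.07 TPM. The 5 conjunctival markers summed to 1420 to 2364 TPM in control and 2210 to 4751 TPM in *Ptch1*-ablated samples, with *Ptch1*-ablated replicate 1 highest. Most of that sum was *Krt13*, and the 5 did not move together. A log2 fold change above 0 was found for 4 of them, whereas *Krt8* was at -0.91 (edgeR adjusted p = 0.0139), and 0 were called. The 5 endothelial and melanocyte markers summed to 8.04 to 10.2 TPM over all samples. *Ptch1*-ablated replicate 1 also lay apart on the first principal component, at 53.8 against 19.2 and 20 for replicates 2 and 3 of its group. No marker of these lists was at 0 in every sample. Whether these shifts in *Krt14* and the immune markers or other cell types contributed to the differences below was not tested.

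TPM, which corrects for gene length, allows the 10 genes to be ranked against each other. In control epithelium their mean levels ran from 87.7 TPM for *Zbp1* through 42.9 for *Casp8*, 17.7 for *Ripk1*, 14.8 for *Gsdmd*, 12.6 for *Casp1*, 8.78 for *Ripk3*, 6.25 for *Mlkl*, 1.68 for *Gsdma* and 0.790 for *Casp4* to 0.313 for *Gsdme*. From *Ripk1* through *Gsdmd*, *Casp1* and *Ripk3* to *Mlkl*, the sample values of each gene overlapped those of its neighbour among these 5. *Zbp1*, *Casp8*, *Gsdma*, *Casp4* and *Gsdme* did not overlap with their neighbours. In *Ptch1*-ablated epithelium *Ripk3* moved from the sixth place in this order to the third, at 25.1 TPM, above *Ripk1* at 19.3 TPM and without overlap between the samples of the 2 genes.

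**Figure D1:**
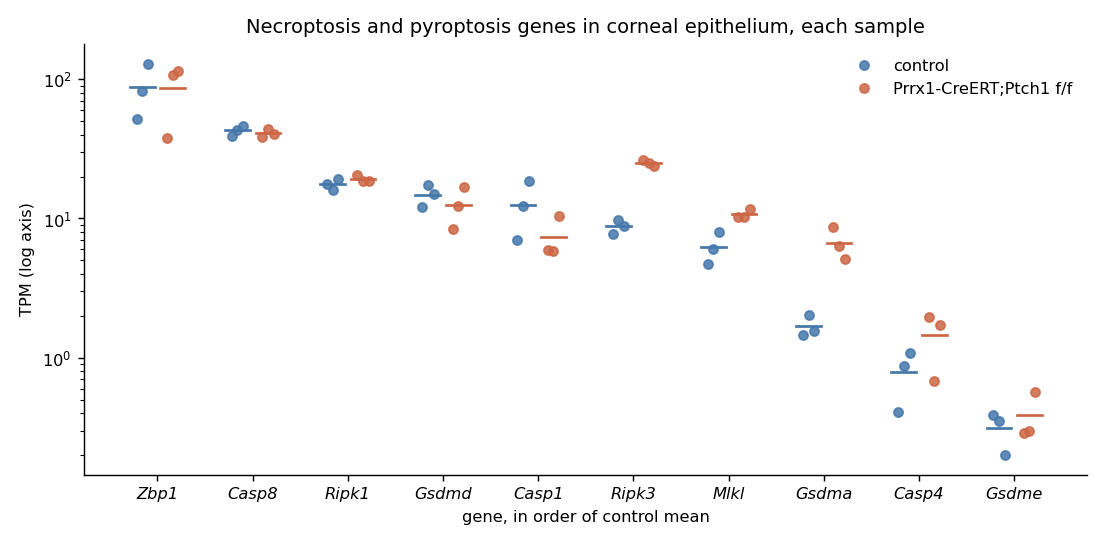
TPM on a log axis of the 10 necroptosis and pyroptosis genes, in order of their control mean. Points are the 3 samples of each group and bars are group means. The *Ptch1*-ablated samples lie above all control samples for *Ripk3*, *Mlkl* and *Gsdma*, and the groups overlap for the other 7 genes.

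Of the 9 genes that passed the filter on low counts, 2 were called higher in *Ptch1*-ablated epithelium, *Ripk3* and *Gsdma*, and 0 were called lower. A call required an adjusted p of at most 0.05 in edgeR's quasi-likelihood test and a fold change of at least 2. Among all 12999 tested genes, 2.34% were called higher and 0.892% lower under the same rule. With no minimum fold change *Mlkl* was the only one added, giving 3 of 9 higher and 0 lower, where the shares over all tested genes were 7.61% and 6.41%. In normalized counts these same 3 genes lay above all control samples in every *Ptch1*-ablated sample, a separation seen in 19.7% of all tested genes, and 0 of 9 lay below, against 20.3%. The median log2 fold change of the 9 was 0.16, beside -0.01 for all tested genes. Because the comparison was known when the list was made, nothing is read from these counts. In a bulk sample, a change in the share of cells that express a gene and a change in RNA per cell cannot be told apart.

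**Figure D2:**
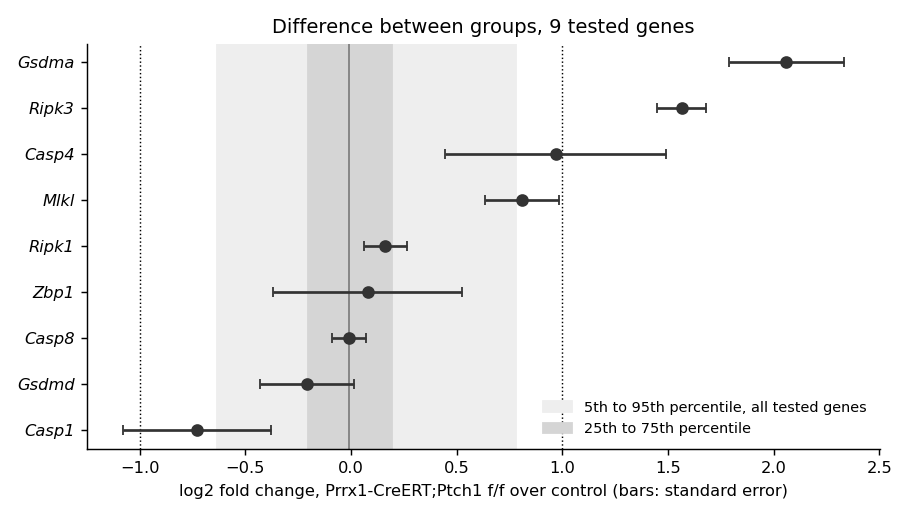
Log2 fold change of *Ptch1*-ablated over control epithelium for the 9 tested genes, with bars of 1 standard error. Shading gives the 25th to 75th percentile (-0.20 to 0.19) and the 5th to 95th percentile (-0.63 to 0.78) over all 12999 tested genes, and dotted lines mark the fold change needed for a call. *Gsdma*, *Ripk3*, *Casp4* and *Mlkl* lie to the right of the shaded range and *Casp1* to its left.

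The necroptosis kinases came apart. *Ripk3*, the kinase that phosphorylates Mlkl, had 7.79, 9.74 and 8.80 TPM in control replicates 1, 2 and 3, and 26.4, 25.2 and 23.6 TPM in *Ptch1*-ablated replicates 1, 2 and 3. The 2 groups were far from overlapping, and each was tight, with the highest sample 1.25 times the lowest in control and 1.12 times in *Ptch1*-ablated epithelium. In normalized counts the means were 152 ± 14.4 (SD, n = 3) and 451 ± 46.0 (SD, n = 3). *Ripk3* thus had a log2 fold change of 1.56 (SE 0.12), a fold of 2.96. Leaving out any 1 sample kept it between 1.49 and 1.64, the lower value being the fit without *Ptch1*-ablated replicate 1, and *Ripk3* was called in each of these fits.

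*Ripk1*, which links death receptors to Ripk3 and also serves as a scaffold for survival signalling, had 17.8, 15.96 and 19.3 TPM in control and 20.4, 18.7 and 18.7 TPM in *Ptch1*-ablated epithelium. The groups overlapped, and the log2 fold change was 0.16 (SE 0.10). Within each sample, the ratio of *Ripk3* to *Ripk1* in TPM was 0.439, 0.61 and 0.457 in control replicates 1, 2 and 3. It was 1.30, 1.35 and 1.26 in the *Ptch1*-ablated replicates, so that *Ripk3* mRNA went from the less to the more abundant of the pair.

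*Mlkl*, the executioner of necroptosis, had 4.69, 6.01 and 8.04 TPM in control and 10.3, 10.3 and 11.7 TPM in *Ptch1*-ablated epithelium. All *Ptch1*-ablated samples were above all control samples, and the control samples were the more spread of the 2 groups. Normalized counts averaged 120 ± 27.8 (SD, n = 3) and 210 ± 9.45 (SD, n = 3), with a log2 fold change of 0.81 (SE 0.17), short of the doubling that a call required. This value was 1.00 without control replicate 3 and 0.66 without control replicate 1, and *Mlkl* was called in 0 of these fits. *Ripk3* differed by more than its substrate, and the ratio of *Mlkl* to *Ripk3* in TPM was 0.602 to 0.914 in control and 0.388 to 0.497 in *Ptch1*-ablated samples.

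The promoters of these 2 partners are shown because both genes were higher in every *Ptch1*-ablated sample. RefSeq windows (GRCm38.p6, 250 bases before to 50 bases after the start site) were at hand for 7 of the 10 genes, as 9 windows, and are written from 5′ to 3′ along the gene. Capitals mark a match to GAAANNGAA, a shortened form of the interferon-stimulated response element. The windows lie at chr14:55788808-55789107 on the minus strand for *Ripk3* and chr8:111338156-111338455 on the minus strand for *Mlkl*.
Ripk3: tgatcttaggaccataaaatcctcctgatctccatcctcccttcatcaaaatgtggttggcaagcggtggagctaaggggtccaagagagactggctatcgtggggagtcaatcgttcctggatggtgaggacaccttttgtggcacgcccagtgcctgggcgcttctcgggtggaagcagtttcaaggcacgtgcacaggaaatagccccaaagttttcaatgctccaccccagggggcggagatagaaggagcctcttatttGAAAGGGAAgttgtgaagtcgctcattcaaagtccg
Mlkl: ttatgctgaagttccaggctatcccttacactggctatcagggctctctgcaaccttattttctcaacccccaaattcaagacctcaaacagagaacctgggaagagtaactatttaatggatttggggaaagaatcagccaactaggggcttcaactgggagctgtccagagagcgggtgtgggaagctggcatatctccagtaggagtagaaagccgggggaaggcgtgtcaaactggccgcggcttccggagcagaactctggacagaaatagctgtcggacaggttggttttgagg

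The windows were searched on both strands for GAAANNGAA, for TTCNNNGAA (a palindrome), for TGANTCA (AP-1) and for GGGNNTTCC (an NF-kB-type site). *Ripk3* held 1 match, to GAAANNGAA, starting 14 bases after the start site, and *Mlkl* held 0 matches to any of the 4. Bases after the start were found in GENCODE transcripts of the gene for every window except that of *Mlkl*. Whether the *Mlkl* window lies at a start site in use is therefore not known. Over the 32851 windows of the table, 8.56% held GAAANNGAA, 8.30% TTCNNNGAA, 7.81% TGANTCA and 5.82% GGGNNTTCC. Elsewhere among the 10 genes, *Casp4* held 2 matches to GGGNNTTCC, at 92 and 39 bases before its start, in the upstream of its 2 windows. The downstream window of *Ripk1* held 1 match to GAAANNGAA, 5 bases before its start, and 2 to TTCNNNGAA, at 108 and 11 bases before, the nearer of which overlaps with the GAAANNGAA match. *Casp1*, *Casp8* and *Gsdme* held 0. A match is a description of the letters and not evidence of binding. *Zbp1*, *Gsdma* and *Gsdmd* had no window.

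*Casp8*, the protease that restrains necroptosis and starts apoptosis at death receptors, had 39.4, 43.4 and 45.9 TPM in control and 38.4, 44.0 and 40.7 TPM in *Ptch1*-ablated epithelium. It was the least variable of the 10 genes over all samples, with group means of 42.9 ± 3.31 and 41.1 ± 2.83 TPM (SD, n = 3), and had a log2 fold change of -0.01 (SE 0.08). Set against *Ripk3*, the ratio of *Casp8* to *Ripk3* in TPM was 4.45 to 5.22 in control and 1.45 to 1.75 in *Ptch1*-ablated samples.

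*Zbp1*, an interferon-induced sensor that can engage Ripk3 directly, was the most abundant of the 10 and differed widely between samples of the same group. It had 51.7, 81.9 and 129 TPM in control replicates 1, 2 and 3, and 37.8, 107 and 115 TPM in *Ptch1*-ablated replicates 1, 2 and 3. The groups overlapped throughout, and the highest sample was 2.50 times the lowest in control and 3.03 times in *Ptch1*-ablated epithelium. The log2 fold change was 0.08 (SE 0.45). The value moved from -0.17 without control replicate 1 to 0.46 without control replicate 3, and was 0.45 without *Ptch1*-ablated replicate 1.

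The spread of *Zbp1* ran with that of other interferon-stimulated genes. The 15 measured genes of that list summed to 1613, 2223 and 3474 TPM in control replicates 1, 2 and 3, and to 896, 2318 and 2976 TPM in *Ptch1*-ablated replicates 1, 2 and 3, the same order of all 6 samples as *Zbp1*. *Ptch1*-ablated replicate 1 was lowest for 15 of 15, and control replicate 3 was highest as well for 13 of them, a pairing of extremes found in 11.6% of all tested genes. Of the 15, 0 were called in either direction by edgeR, DESeq2 or limma-voom. An unadjusted p under 0.05 in edgeR was reached by 0 of them, and by 17.0% of all tested genes higher and 16.5% lower. All 15 had a log2 fold change below 0, with a median of -0.18, where 6299 of all 12999 tested genes lay above 0 and the median was -0.01. Since the 15 ran together over the samples, their shared sign does not count as 15 separate results. *Ripk3* could not share the sample order of *Zbp1*, since all its *Ptch1*-ablated samples lay above all control samples, so nothing is read from that difference in order. *Ptch1*-ablated replicate 1, lowest for *Zbp1*, had 26.4 TPM of *Ripk3*, close to the 25.2 and 23.6 TPM of replicates 2 and 3.

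**Figure D3:**
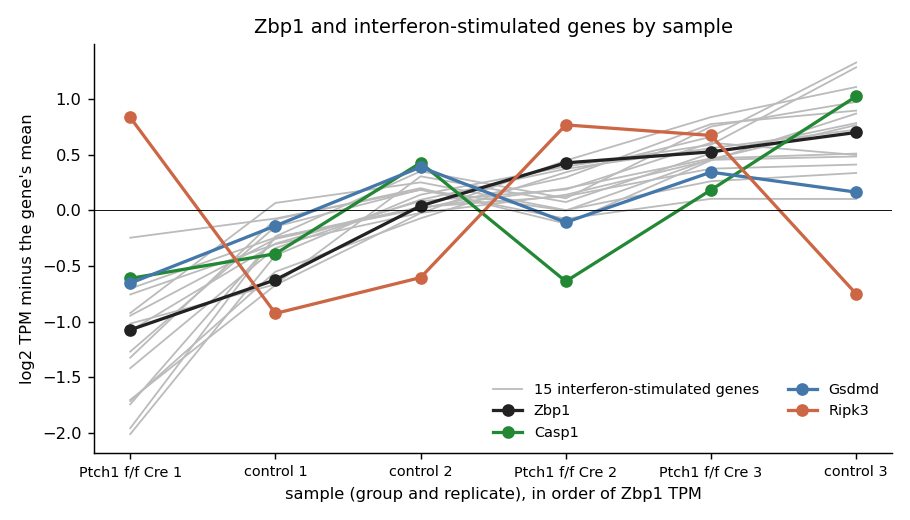
Log2 TPM minus each gene's own mean in the 6 samples, which are placed from left to right by their *Zbp1* TPM. Ptch1 f/f Cre on the axis stands for *Ptch1*-ablated. Thin lines are the 15 interferon-stimulated genes, most of which climb with *Zbp1* (black) from *Ptch1*-ablated replicate 1 to control replicate 3, *Casp1* and *Gsdmd* are drawn beside them, and *Ripk3* is high in the 3 *Ptch1*-ablated samples wherever they fall.

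On the side of pyroptosis, *Gsdma* differed most, and *Casp1* and *Casp4* did not separate the groups. *Gsdma*, a gasdermin of skin and other squamous epithelia that bacterial proteases can open, had 1.47, 2.03 and 1.55 TPM in control and 8.72, 6.30 and 5.11 TPM in *Ptch1*-ablated replicates 1, 2 and 3. Every *Ptch1*-ablated sample was above every control sample, and replicate 1 was the highest. The expected counts behind these values were low in control, 26.3, 35.6 and 28.6, against 162, 110 and 93.5 in *Ptch1*-ablated samples. The means in normalized counts were 29.8 ± 4.99 (SD, n = 3) and 125 ± 38.3 (SD, n = 3). That gave the highest log2 fold change of the 10, 2.06 (SE 0.27), a fold of 4.17. It was 1.79 without *Ptch1*-ablated replicate 1, and *Gsdma* was called in all fits that left out 1 sample except the fit without control replicate 2, where its log2 fold change was 2.2.

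The mouse carries close copies of *Gsdma* beside it on chromosome 11, and RSEM divides reads that match several genes, so the split between the copies is uncertain. *Gsdma3* had 0.44, 0.57 and 0.24 TPM in control and 0.44, 0.28 and 0.62 TPM in *Ptch1*-ablated epithelium, and *Gsdma2* stayed at or under 0.1 TPM. Together with *Gsdmc*, its 3 copies and *Pjvk*, these 7 genes did not exceed 0.62 TPM in any sample and were not tested. *Gsdma* was the only gasdermin of the table above 1 TPM besides *Gsdmd*.

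*Gsdmd*, the pore former downstream of the inflammatory caspases, had 12.1, 17.5 and 14.9 TPM in control and 8.47, 12.4 and 16.9 TPM in *Ptch1*-ablated epithelium. The groups overlapped, with *Ptch1*-ablated replicate 1 lowest. The log2 fold change was -0.21 (SE 0.22), and -0.01 without *Ptch1*-ablated replicate 1. *Gsdme*, a gasdermin opened during apoptosis, was at 0.39, 0.35 and 0.20 TPM in control and 0.29, 0.30 and 0.57 TPM in *Ptch1*-ablated samples. With 4 to 11 counts per sample it did not pass the filter, and a difference was not detectable at this depth.

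*Casp1*, the protease of canonical inflammasomes, had 6.96, 12.3 and 18.6 TPM in control and 5.97, 5.86 and 10.4 TPM in *Ptch1*-ablated epithelium. It had the lowest log2 fold change of the 10, -0.73 (SE 0.35), with overlapping groups. The value moved to -0.36 without control replicate 3 and to -1.01 without control replicate 1, and *Casp1* was not called in any fit. *Casp4*, which senses bacterial lipopolysaccharide in the cytosol and lies next to *Casp1* on chromosome 9, had only 5, 11 and 13 counts in control and 27, 8 and 20 in *Ptch1*-ablated epithelium. Its log2 fold change of 0.97 (SE 0.52) rested on overlapping groups and ranged from 0.57 without *Ptch1*-ablated replicate 1 to 1.32 without *Ptch1*-ablated replicate 2. The neighbouring caspases therefore had fold changes of opposite sign, neither of them called.

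The genes around these 10 were followed in 7 lists by role, of which 94 genes were tested, and 5 rose and 1 fell by the rule for a call, where 2.34% of all tested genes were called higher and 0.892% lower. Their median log2 fold change was 0.08. Each of the 6 called genes was called in 1 to 5 of the 6 fits that left out a sample, and without control replicate 2 the number called was 0. In the full fit, 10 were higher and 3 lower at an adjusted p of 0.05 in edgeR's test with no minimum fold change, beside 7.61% and 6.41% of all tested genes.

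**Figure D4:**
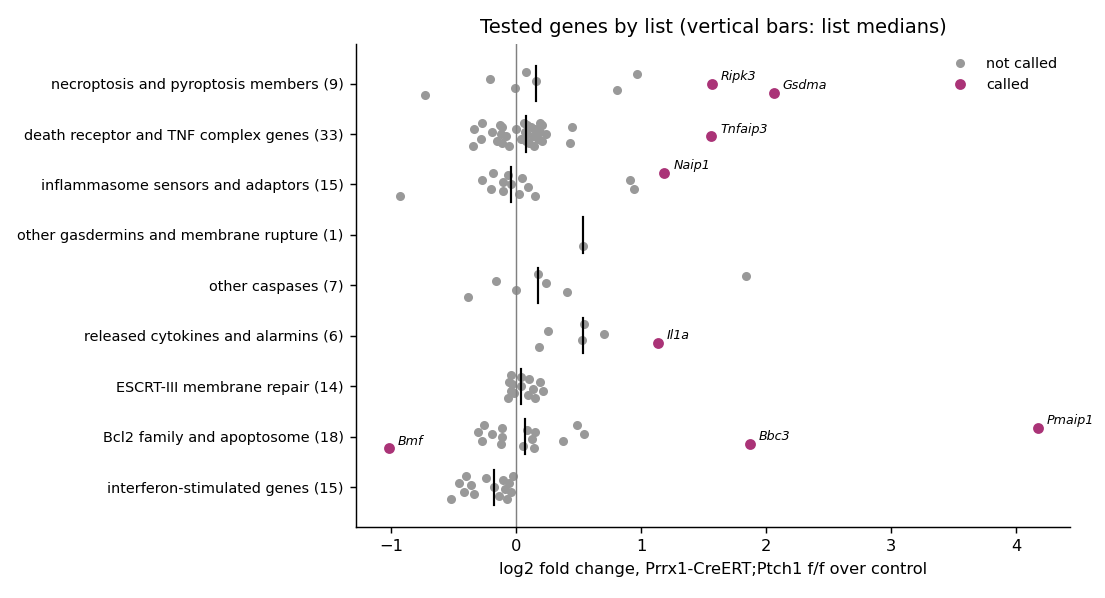
Log2 fold change of *Ptch1*-ablated over control epithelium for each tested gene, by list, with the number tested in parentheses. Called genes are coloured and named, and vertical bars mark list medians, which run from -0.18 for the interferon-stimulated genes to 0.53 for the released cytokines and alarmins and for the list of other gasdermins, whose only tested gene is *Ninj1*.

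Upstream of Ripk1, 1 of 33 tested genes of the death receptor and TNF complex list rose and 0 fell, with a median log2 fold change of 0.08. The shares called over all tested genes were 2.34% higher and 0.892% lower. The riser was *Tnfaip3*, which encodes A20, a ubiquitin-editing brake on NF-kB and on Ripk3. It had 4.45, 2.52 and 3.52 TPM in control and 12.6, 5.36 and 12.2 TPM in *Ptch1*-ablated epithelium, with a log2 fold change of 1.56 (SE 0.35, edgeR quasi-likelihood adjusted p = 0.0315). The call was lost in 5 of 6 fits that left out a sample, the exception being the fit without *Ptch1*-ablated replicate 2. It was also lost under limma-voom (adjusted p = 0.0526) and with limma on log2(TPM + 1) without a filter (adjusted p = 0.0837). *Tnfrsf1a*, the main TNF receptor of epithelium, had 176, 180 and 176 TPM in control and 248, 239 and 214 TPM in *Ptch1*-ablated epithelium, a log2 fold change of 0.44 that did not reach the fold required. With no minimum fold change 2 genes of the list were higher and 2 lower, beside 7.61% and 6.41% of all tested genes. The lower ones were *Birc2* (-0.34, edgeR adjusted p = 0.0272) and *Tab1* (-0.29, edgeR adjusted p = 0.0457). *Tab2*, an adaptor of the kinase Tak1 and the next most abundant of the list, had a log2 fold change of 0.21 and was not called. *Fadd* and *Cflar*, the adaptor and the decoy partner of Casp8, had log2 fold changes of -0.13 (SE 0.08) and 0.19 (SE 0.09), and neither was called.

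Among inflammasome sensors and adaptors, 1 of 15 tested genes rose and 0 fell, where 2.34% of all tested genes were called higher and 0.892% lower. The median log2 fold change of the list was -0.04. *Naip1*, which recognises a bacterial secretion needle and passes the signal to Nlrc4, had 7.27, 8.96 and 11.8 TPM in control and 26.6, 14.3 and 20.4 TPM in *Ptch1*-ablated epithelium. All *Ptch1*-ablated samples were above control, and the log2 fold change was 1.18 (SE 0.25, edgeR quasi-likelihood adjusted p = 0.0267). The *Naip* genes are near-identical copies that can share reads. *Naip2*, *Naip6* and *Naip5* had log2 fold changes of 0.91, 0.95 and 0.02, and none was called. The *Naip1* call was lost without control replicate 1, control replicate 2 or *Ptch1*-ablated replicate 1. It was also lost with limma on log2(TPM + 1) without a filter (adjusted p = 0.068). Its partner *Nlrc4*, with *Nlrp3*, *Nlrp10* and *Mefv*, did not exceed 0.21 TPM in any sample. The most abundant of the list, *Txnip* and *Gbp2*, both had a log2 fold change of -0.11. *Pycard*, the adaptor ASC, was well expressed at 54.8 to 65.6 TPM, with a log2 fold change of 0.15 (SE 0.08).

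Of the released cytokines and alarmins, 1 of 6 tested genes rose and 0 fell, beside 2.34% and 0.892% of all tested genes. All 6 had a log2 fold change above 0, with a median of 0.53, where 6299 of all 12999 tested genes lay above 0. *Il1a*, an alarmin stored in epithelial cells, had 29.7, 30.7 and 30.3 TPM in control and 84.7, 49.9 and 57.8 TPM in *Ptch1*-ablated epithelium. The log2 fold change was 1.13 (SE 0.21, edgeR quasi-likelihood adjusted p = 0.0182), with the call lost when any 1 control sample was left out or without *Ptch1*-ablated replicate 1. *Il18*, a substrate of Casp1, was abundant at 177 to 227 TPM and had a log2 fold change of 0.18 (SE 0.11). *Il1b*, the other main substrate, lay between 0.23 and 0.74 TPM and was not tested. *Hmgb1* had a log2 fold change of 0.26 (SE 0.08) and was not called.

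Membrane rupture and repair gave smaller differences. *Ninj1*, which breaks the membrane open after gasdermin pores form, had 22.4, 20.3 and 19.0 TPM in control and 29.3, 27.4 and 30.3 TPM in *Ptch1*-ablated epithelium. The groups did not overlap, but the log2 fold change of 0.53 (SE 0.11, edgeR quasi-likelihood adjusted p = 0.0258) was under the fold required. Of the 14 genes of ESCRT-III, which pinches off damaged membrane, 0 were called in either direction by edgeR, DESeq2 or limma-voom. At an unadjusted p under 0.05 in edgeR 2 were higher and 0 lower, beside 17.0% and 16.5% of all tested genes. The log2 fold changes of the ESCRT-III genes were confined to -0.07 to 0.21, around a median of 0.04, with *Chmp2a* at -0.07 and *Chmp4b* at 0.04.

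The apoptotic genes beside these pathways were also read. Their mRNA levels, like those of the 10 genes, measure neither protein activation nor cell death. The study reported similar numbers of apoptotic and senescent cells in control and *Ptch1*-ablated corneas. Those stainings were made on corneal sections at a later time after tamoxifen than the present samples. Of the 7 other caspases, 0 were called by edgeR or limma-voom and 1, *Casp12*, by DESeq2. At an unadjusted p under 0.05 in edgeR 2 were higher and 1 lower, where 17.0% of all tested genes were higher and 16.5% lower. *Casp14*, which acts in cornification, reached an adjusted p of 0.0419 in edgeR with a log2 fold change of 0.40. The most abundant of the 7, *Casp2* and *Casp6*, had log2 fold changes of -0.16 and 0.17. In the Bcl2 family and apoptosome list, 2 of 18 tested genes rose and 1 fell, with a median log2 fold change of 0.07. Over all tested genes 2.34% were called higher and 0.892% lower. *Pmaip1*, which encodes the killer protein Noxa, had 0.36, 0.40 and 0.61 TPM in control and 13.9, 3.22 and 6.60 TPM in *Ptch1*-ablated epithelium. Its log2 fold change was 4.17 (SE 0.62, edgeR quasi-likelihood adjusted p = 0.0113), and among the fits that left out a sample the call was lost without control replicate 2. The control samples held only 9.29 to 15.2 counts against 79.3 to 356, so *Pmaip1* passed the filter on low counts through the *Ptch1*-ablated group and has no value with at least 10 counts required in every sample. *Bbc3*, which encodes Puma, rose from 0.42 to 0.63 TPM over the control samples to 1.13 to 2.48 TPM over the *Ptch1*-ablated samples (log2 fold change 1.87, edgeR adjusted p = 0.0217), and the call was lost whichever control sample was left out. *Bbc3* likewise passed through the *Ptch1*-ablated group, with 7.69 to 10 counts in control and 20.02 to 44.5 in *Ptch1*-ablated samples, has no value under the stricter count filter, and was at 0.85 with limma on log2(TPM + 1), under the fold required. *Bmf*, another killer of the family, fell from 2.45 to 4.37 TPM in control to 1.42 to 1.96 TPM (log2 fold change -1.02, edgeR adjusted p = 0.0262). The *Bmf* call was lost in 4 of 6 fits that left out a sample and held in 5 of 10 other settings. It was lost under limma-voom, with a replicate block and in every limma fit on log2 TPM (-0.9995 to -0.7364). The survival gene *Mcl1* (0.48) and the pore former *Bak1* (0.38) did not reach the fold required on the log2 scale.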

How the data were processed

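The submitters' processing notes list Bowtie2 2.2.5, RSEM 1.2.12 and build mm9. The authors deposited expected counts, not scaled for depth, with TPM values scaled per sample for length and depth, and FPKM values and group means that the authors deposited were not used here. Columns of other samples numbered 0. The paper describes rRNA depletion and a BGISEQ platform, whereas the labels name an Illumina kit.

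Expected counts were rounded (39.4% of those above 0 were not whole, within 1e-06) and 12999 of 17784 genes passed edgeR's filterByExpr. The fit used glmQLFTest of edgeR 4.0.16 in R 4.3.3, with TMM factors (0.9596 to 1.03) and Benjamini-Hochberg adjustment over all tested genes. Standard errors are the absolute log2 fold change over the square root of the F statistic. Normalized counts are scaled to the mean TMM library. Alternatives were DESeq2 1.42.0, limma 3.58.1 (voom, or log2 TPM with a pseudocount of 1 or 0.1 and a mean TPM of at least 1 or no filter), other size factors and filters, no minimum fold change, a replicate block and leaving out each sample. The procedure was tested on simulated data.

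Members and lists were chosen with earlier results of these data known. All 10 members are named, and from each list the called genes, the highest in TPM and those next to a member in its pathway. *Casp12*, *Casp14*, *Birc2* and *Tab1* were named after their values were seen. Some genes of the lists are not reported here by name. Samples of a group differed by more than sampling noise (chi-square per degree of freedom 10.7 to 40.4).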

Additional observations from a re-analysis of the deposited data

How the results depend on the processing

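*Ripk3* kept its direction and its call under all 16 alternatives (log2 fold change 1.42 to 1.64). *Gsdma* kept its direction under all 16 (1.5 to 2.23) and its call in 15, losing it without control replicate 2. The number of members called was 2, was 3 with no minimum fold change, and ran from 1 to 2 in fits leaving out 1 sample. *Mlkl* lay between 0.66 and 1.00 and was called in 0. *Zbp1* reversed to -0.0019 with limma-voom, to -0.08 with limma on log2 TPM at a pseudocount of 1 (-0.0769 with and without the filter) and to -0.0791 at 0.1, and spanned -0.171 to 0.463 when 1 sample was left out. *Casp8* spanned -0.0681 to 0.0314 in the same fits. The cause was not tested.

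Over the whole table, 420 genes were called, 304 higher and 116 lower, against 1822 when any fold counted (989 and 833). The limma fit of log2(TPM + 1) called 234, and 168 without its filter on low values. Fits leaving out 1 sample called 59 (without control replicate 2) to 430. For the 7 wider lists the number called was 6, but 13 without that minimum, 2 in the limma fit of unfiltered TPM, and 0 to 5 when 1 sample was left out.

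Deviations of same-numbered samples from their group means correlated at 0.102, -0.0366 and 0.0107 over genes. For different-numbered samples the values lay between -0.182 and 0.189. The main fit treated the samples as unpaired, but a correlation over all genes cannot exclude a shared replicate effect on some genes. *Zbp1* TPM, for one, rose from replicate 1 through 2 to 3 in both groups. *Mlkl* TPM did so as well, narrowly in the *Ptch1*-ablated group (10.25, 10.33 and 11.74). In normalized counts *Mlkl* had 210, 201 and 220 in that group, which is not a steady rise. *Casp4*, *Bbc3* and *Pmaip1* have no value with at least 10 counts in every sample. With a replicate block 390 genes were called, 2 of them members and 5 from the wider lists, *Bmf* being lost. Depth limits *Gsdme*, *Casp4* and *Il1b*.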

Other observations

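The genes nearest to *Gsdma* in their pattern over the 6 samples, by the root mean square difference of log2 normalized counts about each gene's mean among 12924 genes, were *Gab2* (0.165), *Rab31* (0.174), *Ubash3b* (0.185), *Gm5941* (0.191) and *Rnf224* (0.192). *Gab2* encodes a scaffold of receptor tyrosine kinase signalling and *Rab31* a small GTPase of vesicle traffic. *Rab31* had 4.67, 5.73 and 5.56 TPM in control and 22.7, 15.5 and 14.3 TPM in *Ptch1*-ablated epithelium, so that, as for *Gsdma*, replicate 1 of the *Ptch1*-ablated group was the highest. *Gm5941*, with 4 counts in each control sample and 13 to 17 in the *Ptch1*-ablated samples, rests on little depth. It passed the filter on low counts through the *Ptch1*-ablated group, in which it is high. All 5 were called higher in *Ptch1*-ablated epithelium, and likeness in this measure includes the difference between groups.

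The chromosomal neighbours of the 10 genes, taken as up to 2 protein-coding genes on each side in RefSeq order, were also read. Of 34 measured neighbours outside the list, 26 were tested. Calls numbered 0 by edgeR and limma-voom and 1 by DESeq2 (*Casp12*), and at an unadjusted p under 0.05 in edgeR 5 were higher and 4 lower, a cut that 17.0% of all tested genes passed higher and 16.5% lower. Beside *Ripk3*, *Nynrin* had a log2 fold change of 0.53 and *Ltb4r1* of 0.39. Beside *Gsdma*, *Psmd3* averaged 149 TPM in control and 145 TPM in *Ptch1*-ablated epithelium. *Casp12*, which lies beside *Casp4* on chromosome 9, had the highest log2 fold change of the neighbours, 1.84 (SE 0.57, edgeR adjusted p = 0.0675), with 0.24, 0.79 and 1.53 TPM in control and 3.77, 1.59 and 4.21 TPM in *Ptch1*-ablated epithelium. It was named after its value was seen.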
